A study of Mus musculus with 8 samples.

Results

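Myoc, Mgp, Angptl7 and Optn are 4 genes known from the aqueous outflow tissue of the eye or from inherited glaucoma, and they were taken by symbol from the 23420 named genes of the deposited comparison of mouse limbus and cornea. The corneal buttons and limbal rims of wild type C57BL/6J mice, 8 weeks old, were freed of conjunctiva under a microscope, and pieces of each tissue were pooled before RNA extraction. The rim is the border of the cornea with the sclera, and the button is the central cornea. The trabecular meshwork, the filter through which aqueous humor leaves the eye, lies just beneath the limbus, and the labels do not say whether the rims held any of it. The labels number 4 samples per tissue, but the deposited values are built from 1 library per tissue, so no difference below has a replicate check.

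Aqueous humor leaves the anterior chamber through the beams of the trabecular meshwork into Schlemm's canal, an endothelium-lined vessel that circles the eye, and resistance along this path sets the eye pressure. Myoc encodes myocilin, a secreted glycoprotein with an olfactomedin domain that meshwork cells make in quantity and whose misfolding causes an inherited open-angle glaucoma. Mgp encodes matrix Gla protein, a secreted vitamin K-dependent inhibitor of calcification made by meshwork cells, vascular smooth muscle and cartilage. Angptl7 encodes a secreted angiopoietin-like protein of the corneal stroma and the meshwork. Optn encodes optineurin, a cytoplasmic adaptor of selective autophagy found in most cells, which is mutated in some families with normal-tension glaucoma.

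The 4 genes lie on different chromosomes of GRCm38. Myoc is on the plus strand of chromosome 1 from 162639155 to 162649693, and Optn on the minus strand of chromosome 2 from 5020642 to 5064051. Angptl7 is on the minus strand of chromosome 4 from 148495183 to 148500460, and Mgp on the minus strand of chromosome 6 from 136872435 to 136875823. All are annotated as protein coding, with 2074 bases of exon for Myoc, 1187 for Mgp, 2157 for Angptl7 and 3753 for Optn. Angptl7 lies inside an intron of Mtor, the gene of a growth-regulating kinase, on the opposite strand and without shared exon bases. Exons of Myoc and Optn share 93 and 73 bases with genes on the opposite strand, Myocos and 4930551O13Rik, which were not analysed here.

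The bases just before the transcription start were read from RefSeq promoters (GRCm38.p6) for Myoc, Angptl7 and Optn. They are shown because Myoc, with 99.3% of its normalized reads from the limbus, and Optn, with 39.6%, differ there in their core promoter letters. No promoter was available for Mgp, and a link between these letters and tissue was not tested. Capitals mark a TATA box (TATAAA) or a GC box (GGGCGG) on either strand in the 120 bases before the start, each written 5′ to 3′ on the gene's own strand.
Myoc, chr1:162639030-162639149, plus strand: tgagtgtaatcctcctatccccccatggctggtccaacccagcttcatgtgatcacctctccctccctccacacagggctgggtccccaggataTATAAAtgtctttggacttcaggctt
Angptl7, chr4:148500463-148500582, minus strand: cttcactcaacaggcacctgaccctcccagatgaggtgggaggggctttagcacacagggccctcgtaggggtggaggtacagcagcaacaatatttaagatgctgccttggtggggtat
Optn, chr2:5064118-5064237, minus strand: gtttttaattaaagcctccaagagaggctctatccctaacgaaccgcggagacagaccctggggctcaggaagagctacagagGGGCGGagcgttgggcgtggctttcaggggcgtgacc
Distances are from the RefSeq start, which lies upstream of the gene positions given above, most of all for Optn. The TATA box of Myoc begins 26 bases before the start. TATAAA is found in the 250 bases before the start in 12.4% of the 32851 RefSeq mouse promoters, both strands searched. The GC box of Optn begins 37 bases before the start, and GGGCGG is found in 32.7% of promoters. Neither exact motif is in the Angptl7 window, and variants of either motif were not searched for. Glucocorticoids are known to induce Myoc in meshwork cells. The full glucocorticoid response element, an inverted repeat of AGAACA around any 3 bases, was also searched for. It is in none of the 3 windows and in 0.00913% of all promoters. An element this rare would be absent from almost any 3 windows, so its absence does not bear on the induction. AGAACA alone, which is part of that element and which 16.1% of promoters hold, begins 168 bases before the start of Optn. CCAAT, in 33.8% of promoters, is on the opposite strand of Myoc, 216 bases before the start. These matches describe the letters of a short window and do not show binding.

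Named genes took 26104317 reads in the corneal library and 21182025 in the limbal one. Reads were divided by size factors of 1.03 and 0.967 to give normalized reads. The ratio of limbus over cornea is given on the log2 scale with the exact Clopper-Pearson 95% confidence interval (CI) of the limbal share, which covers counting error only, as PCR copies of 1 molecule can be read several times. For counts and ranks of ratios, 0 to 3 reads in a library were taken as 3. The labels held against tissue markers: Krt12, a keratin of the corneal epithelium, had a log2 ratio of -2.19, and the limbal keratin Krt15 one of 3.32. Markers of other tissue were also read in the limbal library. The 6 skeletal muscle markers added up to 32.9 normalized reads in the corneal library against 10048 in the limbal one, and the 6 markers of smooth muscle and pericytes to 55.1 and 1750.

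Myoc and Mgp were higher in the limbus, whereas Angptl7 and Optn were higher in the cornea by smaller margins. The 4 genes thus did not move together. At least 2-fold differences were found to the limbal side for 2 of the 4 genes and to the corneal side for 0. Of 13932 genes with a mean of 10 or more normalized reads, 18.0% lay at least 2-fold to the limbal side and 8.88% to the corneal side, or 2502 and 1237 genes. After scaling to total reads, the same counts were 2834 and 783. The 4 genes passed this filter on the mean. In tissue pieces, fewer cells of a type and less RNA per cell cannot be told apart.

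Myoc gave 9 corneal and 1119 limbal reads, or 8.71 and 1157 normalized reads. It was 133-fold higher in the limbus, and its log2 ratio was 7.05 (95% CI 6.12 to 8.19). The corneal number is small but above the 3 reads that a count of 0 allows, and its exact Poisson interval ran from 4.1 to 17.1 reads. Myoc had the most one-sided distribution of the 4 genes, with 99.3% of its normalized reads in the limbus. Of the 13932 genes, 23 had a higher ratio. Among these 23 genes were 5 of the listed skeletal muscle markers (Myh4, Tnnt3, Ckm, Tnnc2 and Acta1), 3 endothelial genes (Plvap, Cdh5 and Pecam1) and the connective tissue fibroblast gene Pi16. These 5 muscle markers had log2 ratios from 7.38 to 8.71, and the remaining one, Myh13, had 1 corneal and 3 limbal reads and no ratio. Skeletal muscle is itself known to express Myoc, and the part of muscle in its limbal reads was not tested.

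Mgp gave 672 corneal and 5944 limbal reads, or 650 and 6145 normalized reads. Its log2 ratio of 3.24 (95% CI 3.13 to 3.36) corresponds to 9.45-fold more in the limbus, and 4.86% of the 13932 genes had a higher ratio. Unlike Myoc, it was plainly present in the corneal button as well, and the intervals of both genes lie apart. Of 6 smooth muscle and pericyte markers, from cells known to make Mgp, the 5 with a mean of at least 10 had log2 ratios from 2.68 to 6.76. The part of these cells in the limbal Mgp reads was not tested.

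Angptl7 went the other way, with 5443 corneal and 3605 limbal reads, or 5265 and 3727 normalized reads. It was 1.41-fold higher in the cornea, and its log2 ratio was -0.50 (95% CI -0.56 to -0.44). The counting interval is narrow at this depth, but scaling to total reads moved the ratio outside it, to -0.29. The ratio lies inside the bulk of all genes, 24.9% of which had a lower one. The 5 listed keratocyte markers of the corneal stroma were spread over both sides. Keratocan (Kera), a keratocyte proteoglycan, had a log2 ratio of -2.99, lumican (Lum) one of -0.01 and the prostaglandin synthase Ptgds one of 3.49. The host gene Mtor had a log2 ratio of -0.19 (95% CI -0.31 to -0.08) on 1292 corneal and 1057 limbal reads. The RNA libraries were stranded, but whether counting used strand is not given in the sources used here. Per kilobase of exon, normalized reads of Angptl7 were 19.7 times those of Mtor in the cornea and 16 times in the limbus.

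Optn gave 401 corneal and 246 limbal reads, or 388 and 254 normalized reads. Its log2 ratio of -0.61 (95% CI -0.84 to -0.38) corresponds to 1.53-fold more in the cornea. The intervals of Optn and Angptl7 overlap, so these neighbors in the order of ratios did not differ beyond counting error. All other neighbors did, with log2 ratios 3.81 apart for Myoc and Mgp and 3.74 apart for Mgp and Angptl7.

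**Figure D1:**
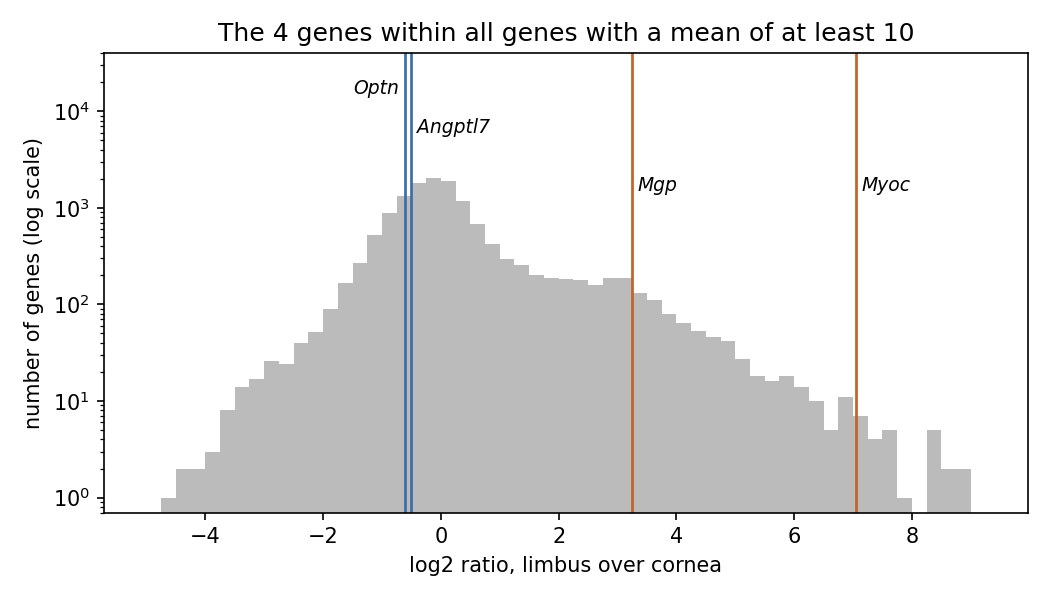
Histogram of the log2 ratio of limbus over cornea for 13932 genes with a mean of 10 or more normalized reads (vertical axis, number of genes on a log scale), with lines at the 4 genes. Myoc at 7.05 and Mgp at 3.24 stand in the limbal tail, and Angptl7 at -0.50 and Optn at -0.61 stand within the bulk.

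Levels of different genes were compared as normalized reads per kilobase of exon. In the cornea the order was Angptl7 with 2441, Mgp with 548, Optn with 103 and Myoc with 4.2 reads per kilobase. In the limbus Mgp came first with 5177, followed by Angptl7 with 1728, Myoc with 558 and Optn with 67.8. No interval of neighbors in either order overlapped by counting error. Angptl7 and Mgp changed places as the most abundant of the 4, as Angptl7 was 4.46 times as abundant as Mgp in the cornea and Mgp 3 times as abundant as Angptl7 in the limbus. The lower pair changed places too, with Optn at 24.6 times the level of Myoc in the cornea and Myoc at 8.23 times that of Optn in the limbus. Among 17225 genes ranked by this level, Angptl7 ranked 412 in the cornea and 583 in the limbus. Mgp ranked 1982 and 187, Myoc 12635 and 1838, and Optn 6939 and 8161.

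**Figure D2:**
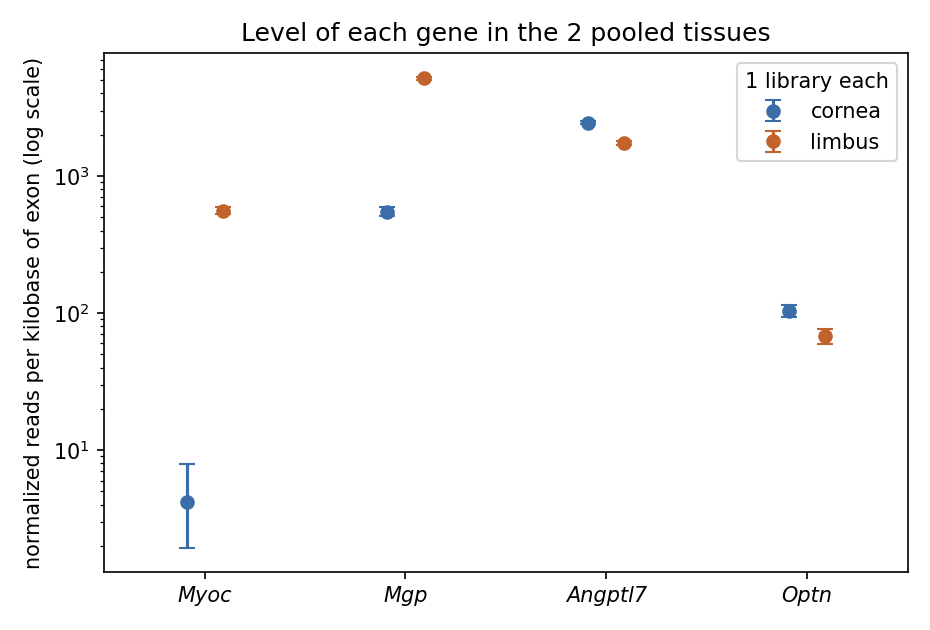
Normalized reads per kilobase of exon (log scale) of each gene in the cornea (blue) and the limbus (orange), 1 library per tissue, with exact Poisson 95% intervals of the reads as bars. Myoc spans 4.2 to 558, whereas Angptl7 and Optn lie close together in the pair of tissues.

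Other markers of the meshwork and of Schlemm's canal were mostly on the limbal side. Of 8 listed meshwork markers, 7 had a mean of at least 10. Of these, 4 were at least 2-fold to the limbal side and 2 to the corneal side, where all genes gave 18.0% and 8.88%. Their median log2 ratio was 1.55, against -0.04 for all genes. Chi3l1, a secreted chitinase-like glycoprotein, gave 7 corneal and 843 limbal reads, with a log2 ratio of 7.01 (95% CI 5.96 to 8.33), close to Myoc. Fibromodulin (Fmod), a collagen-binding proteoglycan of sclera and meshwork, had a log2 ratio of 4.25 on 713 corneal and 12695 limbal reads. Nell2, a secreted neural protein, had no corneal and 66 limbal reads, at least 23.5-fold higher in the limbus against a floor of 3 reads. Apolipoprotein D (Apod) had a log2 ratio of 1.55 and podoplanin (Pdpn) one of 0.43. The pair on the corneal side was Tmeff2, a membrane protein with 41 and 9 reads, and Rarres1, a retinoid-responsive gene with 196 and 51 reads. Rspo4, a Wnt agonist listed for the meshwork next to the canal, had no corneal and 1 limbal read.

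The list for Schlemm's canal and the angiopoietin pathway that maintains it held 12 genes. Of these, 11 were at least 2-fold higher in the limbus, against 18.0% of all genes. The median log2 ratio of the 12 was 3.35. The highest ratios were those of genes that mark blood vessels in general. Plvap, of fenestrated endothelium, had 3 corneal and 914 limbal reads, a ratio of 326 (95% CI 111 to 1582), and the adhesion molecule Pecam1 had 6 and 831 reads. The lymphatic regulator Prox1 marks the canal among blood vessels. It rested on 1 corneal and 23 limbal reads, a ratio of 24.6 (95% CI 3.99 to 1012). The authors also describe lymphatic vessels in the limbus, and the part of these vessels in the Prox1 reads was not tested. Tek, the receptor of the angiopoietins and itself a gene of inherited childhood glaucoma, had 2 and 178 reads, a ratio of 95.1 (95% CI 25.9 to 791). The ligand Angpt1 had 11 and 71 reads, and Angpt2 had 49 and 159. Npnt, a matrix ligand of integrins, had a log2 ratio of 1.34.

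The other 12 genes listed for inherited or developmental glaucoma were split between the limbal side and no 2-fold difference. Of the 11 with a mean of at least 10, 5 were at least 2-fold higher in the limbus, 0 in the cornea, and 6 lay between. Their median log2 ratio was 0.77. All genes gave 18.0% to the limbal side and 8.88% to the corneal side. Tek, one of the 5, was also counted in the list for Schlemm's canal. Matrix genes were among those on the limbal side. Ltbp2, a microfibril protein, had 2 and 316 reads, a ratio of 169 (95% CI 46.4 to 1400), and Loxl1, which crosslinks elastin, had a log2 ratio of 2.50 (95% CI 2.31 to 2.69) on 269 corneal and 1420 limbal reads. Efemp1, an abundant fibulin, had a log2 ratio of 0.04 on 10176 corneal and 9790 limbal reads. Pax6, the eye transcription factor, was 1.62-fold higher in the cornea, close to Optn. Wdr36, proposed as a glaucoma gene, had a log2 ratio of -0.79 on 1528 corneal and 828 limbal reads.

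Genes at loci tied to common glaucoma gave 1 of 14 at least 2-fold to the limbal side and 1 to the corneal side, which is not above the 18.0% and 8.88% of all genes. Their median log2 ratio was 0.42. The neighbors Cav1 and Cav2, which encode caveolins of membrane pits, split. Cav1 gave 1558 corneal and 2093 limbal reads, with a log2 ratio of 0.52, whereas Cav2 had 6053 and 1551 and a log2 ratio of -1.87 (95% CI -1.95 to -1.79). Gas7, a cytoskeletal adaptor, was 16-fold higher in the limbus on 16 corneal and 239 limbal reads. The cell cycle inhibitor Cdkn2b had a log2 ratio of 0.37, and Gmds, an enzyme of fucose synthesis, one of 0.86.

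Among the olfactomedin relatives of Myoc and the latrophilin receptors, 11 other genes had a mean of at least 10. Of these, 5 were at least 2-fold to the limbal side and 0 to the corneal side, where all genes gave 18.0% and 8.88%. The median log2 ratio of the 11 was 0.77 and the highest was 5.08. That highest value belonged to Olfml2b with 3 and 95 reads, a ratio of 33.8 (95% CI 11.2 to 167). Olfm4, a secreted glycoprotein, had a log2 ratio of 3.77 on 83 corneal and 1062 limbal reads, and Olfml1 had one of 2.90 on 45 and 315 reads. Olfml3, the relative with the most reads in the cornea after the receptor Lphn2, had a log2 ratio of 0.27 on 1570 corneal and 1768 limbal reads. None of the 11 reached the ratio of Myoc, which also had the highest level per kilobase of the family in the limbus.

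Angptl7 dominated its family. It had 2441 normalized reads per kilobase in the cornea, whereas the next, Angptl4, had 74.0 and Angptl1 had 67.8. Angptl4, a lipase inhibitor induced by fasting and low oxygen, gave 271 corneal and 142 limbal reads, with a log2 ratio of -0.84. Angptl2 was the relative at least 2-fold higher in the limbus, with 209 and 524 reads, and its log2 ratio was 1.42 (95% CI 1.19 to 1.66). Angptl1 had a log2 ratio of 0.48.

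For Mgp, 13 other genes of vitamin K use and calcification control had a mean of at least 10. Of these, 6 were at least 2-fold to the limbal side and 1 to the corneal side, where all genes gave 18.0% and 8.88%. The median log2 ratio of the 13 was 0.83. Of the enzymes that make Gla residues or recycle vitamin K, 1 stood apart. The carboxylase Ggcx had a log2 ratio of 0.28 on 488 corneal and 556 limbal reads, and the vitamin K reductase Vkorc1 had one of 0.14 on 690 and 711 reads. Its relative Vkorc1l1, the gene of the list on the corneal side, had 137 and 47 reads and was 2.73-fold higher in the cornea (log2 ratio -1.45, 95% CI -1.96 to -0.96). The other Gla proteins stood apart from each other, since the growth factor Gas6 had 4945 and 5730 reads and the anticoagulant Pros1 had 70 and 448. Osteopontin (Spp1), a mineral-binding secreted protein, had a log2 ratio of 5.87 on 8 corneal and 439 limbal reads. Bmp4, a growth factor whose signaling Mgp is known to inhibit, had 3 and 116 reads, a ratio of 41.3 (95% CI 13.8 to 203). Abcc6, a transporter whose loss calcifies elastic tissue, had a log2 ratio of 3.86 on 5 corneal and 68 limbal reads. Ank, which exports pyrophosphate, an inhibitor of mineral, had a log2 ratio of -0.29 on 3408 corneal and 2608 limbal reads. Bglap and Bglap2, the osteocalcin genes, were listed at 0.

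The partners of optineurin lay on both sides of an even ratio. Of 20 genes, 18 lay within 2-fold, with 1 beyond it to the limbal side and 1 to the corneal side, where all genes gave 18.0% and 8.88%. Their median log2 ratio was -0.13. The kinase Tbk1, which phosphorylates optineurin and is itself a glaucoma and motor neuron disease gene, had a log2 ratio of -0.39 (95% CI -0.53 to -0.25) on 1011 corneal and 724 limbal reads. Myo6, the motor that binds optineurin, was the gene on the corneal side, with 8075 and 3271 reads and a log2 ratio of -1.21. Of the 3 listed adaptors of Tbk1, Tank had a log2 ratio of -0.96, Azi2 one of -0.71 and Tbkbp1 one of 3.27 from 13 and 117 reads. The ubiquitin-like Gabarap and Map1lc3a, to which optineurin and the other receptors bind on autophagosomes, had log2 ratios of -0.11 and 0.75. Among the other autophagy receptors, Sqstm1 had 4525 and 4734 reads and Tax1bp1 had 8373 and 5028. Optn had fewer reads per kilobase than either of these in both tissues, with 103 against 1304 for Sqstm1 and 811 for Tax1bp1 in the cornea.

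Of 10 genes of glucocorticoid response with a mean of at least 10, 1 was at least 2-fold to the limbal side and 0 to the corneal side, which is not above the 18.0% and 8.88% of all genes. The receptor Nr3c1 had a log2 ratio of -0.66 on 1923 corneal and 1136 limbal reads. Its target Tsc22d3 had a log2 ratio of 0.60, Klf9 one of 0.73 and Per1 one of 0.79, whereas the targets Sgk1 and Errfi1 had -0.43 and -0.40. Hsd11b1, which reactivates cortisol and corticosterone inside cells, had 1 and 42 reads, a ratio of 44.9 (95% CI 7.63 to 1814).

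**Figure D3:**
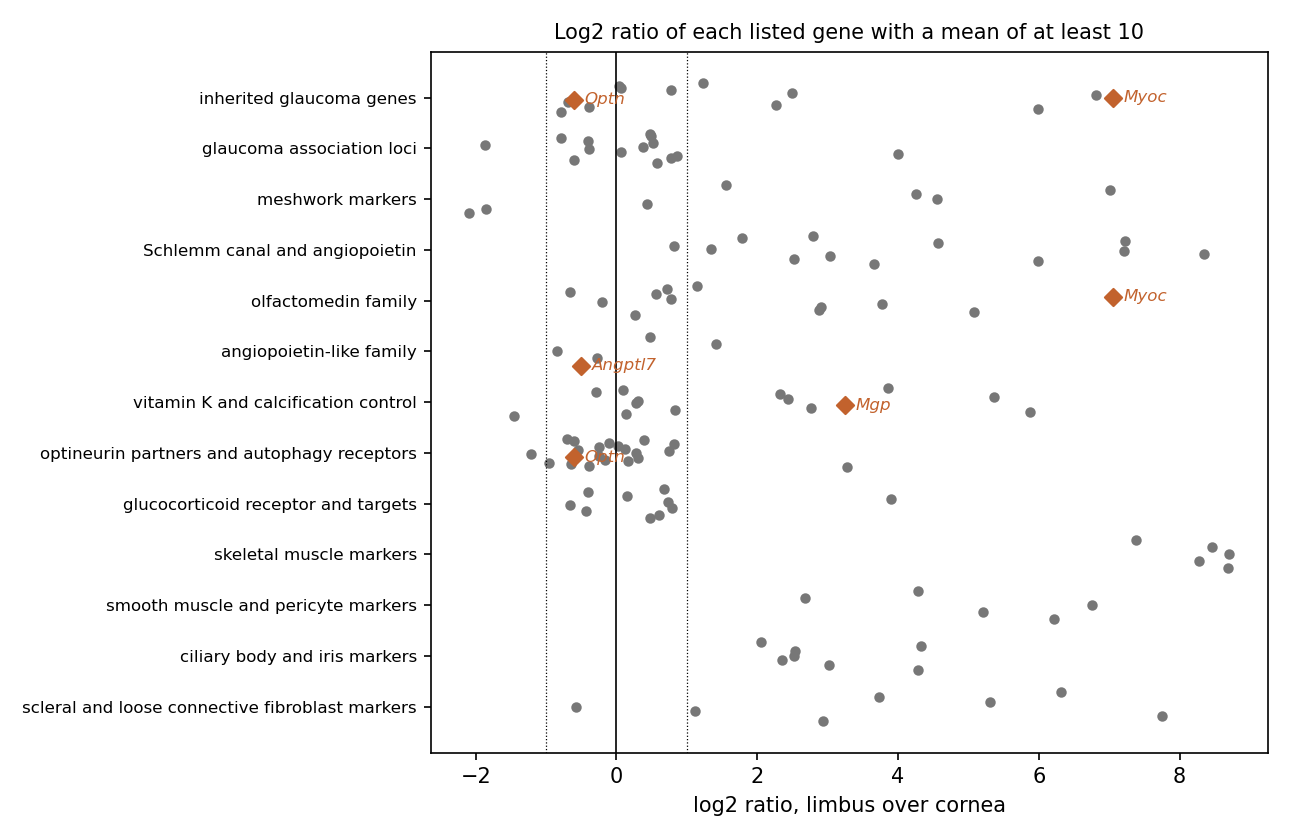
Log2 ratio of limbus over cornea for each listed gene with a mean of at least 10 normalized reads, one line of points per list, with diamonds for Myoc, Mgp, Angptl7 and Optn and dotted lines at a 2-fold difference. Muscle markers lie far on the limbal side and optineurin partners lie around 0.

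Markers of some tissues next to the meshwork were also higher in the limbal library. For the counts below, all genes gave 18.0% at least 2-fold to the limbal side and 8.88% to the corneal side. Of the 8 ciliary body and iris markers, among them pigment genes also made by melanocytes, 7 had a mean of at least 10 and all 7 were at least 2-fold higher in the limbus, with summed normalized reads of 333 and 1801. For the connective tissue fibroblast markers the sums were 4289 and 8522, with 6 of 7 genes at least 2-fold higher. The corneal endothelium, which borders the meshwork on the inner side, had 2 of 5 markers at least 2-fold higher in the limbus and sums of 23254 and 28188. Schwann cell markers gave 3 of 5 genes and sums of 4862 and 8052. The keratocyte list, which shares Aldh3a1 with the corneal epithelium and Col8a2 with the endothelium, had 2 of 5 genes at least 2-fold higher in each tissue. Of the limbal and conjunctival epithelial markers all 5 with a mean of at least 10 were at least 2-fold higher in the limbus, and of 4 corneal epithelial markers 2 were at least 2-fold higher in the cornea. The lists that were higher in the limbus share with Myoc and Mgp only the direction of the difference, as does any gene higher there. The part of these tissues in the limbal reads of Myoc or Mgp was not tested.

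The genes most like each of the 4 in ratio were sought among genes with at least 100 reads in both tissues. With 1 library per tissue, likeness means only a near log2 ratio. For Mgp these were Scarf2, Crygs and Ocm, at log2 ratios of 3.26, 3.26 and 3.27. For Angptl7 they were Osgin2, Jarid2 and Zyg11b, all at -0.50, and for Optn Snrpe, Elk4 and Blmh, all at -0.61. Myoc itself had fewer corneal reads than this limit, so the search could not return genes as low in the cornea as Myoc, such as Chi3l1 at 7.01. Within the limit its nearest were Serpinb3a at 6.11, Krt4 at 5.16 and Col3a1 at 4.98.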

How the data were processed

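RNA of pooled limbal rims and corneal buttons was made into stranded total RNA libraries and sequenced on an Illumina NextSeq. The authors trimmed adaptors and used CLC Genomics Workbench for mapping to GRCm38 (mm10), with trimmed mean of M-values normalization stated. The authors deposited 1 table with, for each gene, the mean normalized signal over the libraries, a log2 fold change shrunken towards 0 and the standard error of it. Raw and adjusted p-values also stand in the table and were not used. The deposited log2 fold change and standard error served only to recover the reads and are not reported. A note in the table gives their direction. A column of transcript accessions was not used, because of 19422 that stand beside a gene symbol only 2 belong to that gene. The gene symbols were used, with Krt12 at rank 1 of all means and 68 of 72 ribosomal protein genes above the median mean.

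Of 40904 rows, 17484 name no gene and hold no values, and 5978 of the 23420 named genes have a mean of 0. For the other 17442 genes the mean is built from whole reads of 2 libraries (1 gene missed a whole number by more than 0.01), weighted 102 for the cornea and 109 for the limbus. The mean alone left 11 read pairs for Myoc, 65 for Mgp, 85 for Angptl7 and 6 for Optn. The pair was taken that gave the fold change and standard error under a negative binomial model with a normal prior (standard deviation 1.437 on the log2 scale) and a free dispersion. Both were met within 3e-05 in sum for 17441 genes. For the 4 genes the sum was 5.8e-07, 7.2e-07, 2e-06 and 1.8e-06, and the next pair missed by 0.0015 or more. For 36 genes with several near pairs, the dispersion nearest the trend decided. In simulated data of this comparison, all 17068 genes had their reads found exactly. The simulation used the same model as the recovery, and 200 of its genes were set to differ, by 4-fold. It checks the search for the pair and cannot show that the deposited values follow the model. The reads are therefore derived values. The design expected values per sample, so no test was made.

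Depth was 26104317 and 21182025 reads. For ranks, medians and counts of 2-fold differences, 3 reads or fewer in a library were set to 3. The text gives the ratio of the reads themselves for 1 to 3 reads, and a lower bound against 3 reads for none. Exon lengths and positions are from GENCODE M21, which uses the same build. The rule named the 4 genes, from each list the 3 with the highest level and the 3 with the largest ratio, overlapping genes, and the 3 nearest in ratio. Lists of cell type markers are given by counts and sums, and not every gene that the rule picks from them is described. Other listed genes (Tmeff2, Rarres1, Rspo4, Prox1, Angpt1, Angpt2, Wdr36, Lphn2, Ggcx, Vkorc1l1, Pros1, Tbk1, Azi2, Tax1bp1, Nr3c1 and Myh13) were named after their values were seen. The values of 2 listed genes are not reported here. The 4 genes and the lists were chosen with earlier results of these data known, and the motifs after the values were seen. Alternatives were other scalings, a pseudocount of 1, other filters and the second-best read pair. Python 3.11.15, numpy 2.4.6, scipy 1.17.1 and pandas 2.3.3 were used.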

Additional observations from a re-analysis of the deposited data

How the results depend on the processing

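The 4 log2 ratios kept their direction under all 20 alternatives. A pseudocount of 1 cannot reverse a ratio, and the shifts from scaling were smaller than each ratio. Scaling to total reads raised every log2 ratio by 0.206, giving 3.45 for Mgp and -0.29 for Angptl7. Total reads without the 10 genes with the most reads, chosen after seeing the data, raised them by 0.131, giving 3.37 and -0.37. Each such shift is the same for every gene, so it cannot change the order of the ratios. The second-best read pair gave 3.20 for Myoc, 4.85 for Mgp, -3.02 for Angptl7 and -1.73 for Optn, but missed the deposited values by far more than the pair used. Of 12 alternatives for the counts of 2-fold differences, 10 were within 1.5 times. A mean of at least 50 left 1417 genes higher in the limbus, because fewer genes were counted, and scaling to total reads left 783 higher in the cornea. No paired analysis was possible because the table gives no value per numbered sample, and leaving out replicates could not be run for the same reason. With 9 corneal reads, the Myoc fold is limited by depth.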
